A study of Mus musculus with 2 samples.

Results

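The Dnah and Cfap genes of the mouse were described in nuclei of the injured spinal cord. Members were all genes whose symbol is Dnah or Cfap followed by a digit, and 48 of the 32285 features in each count matrix met that rule, 15 Dnah and 33 Cfap genes. The antisense gene Dnah2os also carried the prefix and was left out, and 5 members (Dnah7a, Dnah7b, Dnah7c, Cfap97d1 and Cfap97d2) have letters after the digits. Together the members are called the module here.

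Motile cilia beat by the sliding of microtubule doublets in the axoneme, a ring of doublets around a central pair. Dnah genes encode the axonemal dynein heavy chains, the motors of the outer and inner arms, while Cfap genes encode a mixed set of cilia and flagella associated proteins of the central pair, the doublets, the arms and the basal body. In the spinal cord, ependymal cells along the central canal carry motile cilia, and Foxj1 is the transcription factor best known for switching on their axonemal genes.

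Nuclei came from male iNeuroD1GFP mice, 8 weeks old by the labels, in which tamoxifen is given to induce NeuroD1. Injury was made at postnatal day 60, tamoxifen was given at 100 mg/kg/day on days 5 to 8, and cords were taken on day 10. There was 1 library of the injury core and 1 of the region that the titles call distal and the extraction protocol calls peri-injury, both from 3 mice, and the labels do not say if tissue was pooled. Both libraries carry the transgene, the injury and the tamoxifen, and no uninjured or untreated library was compared, so there is no replicate, no test and no p-value. The labels do not name the promoter of the transgene. Nuclei were counted as unique molecular identifiers (UMIs) of 10x Genomics 3′ libraries, and levels are UMIs per 1000000 UMIs of the set (CPM). Intervals are exact 95% intervals (Poisson for CPM, Clopper-Pearson for shares, conditional for ratios), and they cover counting error only.

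Barcodes were kept with 300 genes or more and 5% of UMIs or fewer from mitochondrial genes, which left 16360 core and 7443 distal barcodes, with median depths of 1303 and 1744 UMIs, and 38 barcode sequences occurred in both libraries. In bulk sums over a library, fewer cells of a type and less RNA per cell cannot be told apart. Neuron markers reached 10482 CPM in the hepatocyte-like cluster and 4156 CPM in the oligodendrocyte-like cluster, against 24687 to 32926 CPM in the neuron-like clusters outside the Ebf2-rich pair described later, so levels of neuronal genes in other classes were not low.

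Promoters of 40 of the 48 members were found in the RefSeq table for GRCm38.p6, each 300 bases from 250 before to 50 after the start. Of the 9 members named below for their UMIs in marker-defined ependymal-like nuclei, 3 held a match to a motif of the ciliary regulators on either strand, and these are shown 5′ to 3′ with the matches in capitals, chosen after their values were seen. Cfap46 lies at chr7:139683766-139684065 on the minus strand, Cfap44 at chr16:44394549-44394848 on the plus strand and Cfap43 at chr19:47837312-47837611 on the minus strand.
Cfap46: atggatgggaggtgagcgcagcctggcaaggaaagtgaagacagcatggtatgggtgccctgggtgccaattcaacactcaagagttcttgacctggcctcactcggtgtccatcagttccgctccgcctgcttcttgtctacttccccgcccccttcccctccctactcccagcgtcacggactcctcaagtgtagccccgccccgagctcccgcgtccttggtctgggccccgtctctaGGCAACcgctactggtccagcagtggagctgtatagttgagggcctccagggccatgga
Cfap44: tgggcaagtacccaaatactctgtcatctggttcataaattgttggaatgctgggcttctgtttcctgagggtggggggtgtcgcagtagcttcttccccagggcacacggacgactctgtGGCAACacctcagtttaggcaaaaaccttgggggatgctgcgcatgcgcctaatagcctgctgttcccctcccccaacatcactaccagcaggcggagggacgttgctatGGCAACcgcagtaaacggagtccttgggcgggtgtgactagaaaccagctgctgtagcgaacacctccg
Cfap43: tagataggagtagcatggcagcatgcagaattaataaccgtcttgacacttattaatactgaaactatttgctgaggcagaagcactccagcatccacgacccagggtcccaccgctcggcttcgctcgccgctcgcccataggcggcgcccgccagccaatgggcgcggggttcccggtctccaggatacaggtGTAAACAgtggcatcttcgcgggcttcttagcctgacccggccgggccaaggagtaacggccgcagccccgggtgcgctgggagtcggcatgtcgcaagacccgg
The capitals mark GTTGCC, a half-site of RFX factors, in Cfap46 and Cfap44, where it stands on the other strand as GGCAAC, and GTAAACA, a forkhead site, in Cfap43. GTTGCC was found in 14 of the 40 members' promoters (35%) and in 14.1% of the promoters of 27025 genes. GTAAACA was found in 3 of 40 (7.5%) against 4.05%. A match is a description of letters and not a bound site.

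Summed over all filtered barcodes, the module stood at nearly the same level in both libraries. It had 17002 UMIs and 558 CPM (549.7 to 566.5) in the core and 10545 UMIs and 554 CPM (543.2 to 564.4) in the distal library, a core to distal ratio of 1.01 (0.984 to 1.03). With TMM scaling between the libraries the ratio was 1.16. Dnah genes gave 139 CPM in the core and 142 CPM in the distal library, and Cfap genes gave 419 and 412 CPM. At least 1 module UMI was carried by 56.0% of core and 58.4% of distal barcodes.

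Members differed widely in level, and 5 of them gave 45.5% of all module UMIs. Cfap69, a central pair protein, stood at 76.0 CPM in the core and 61.3 CPM in the distal library. Cfap36, a protein that binds the small GTPase Arl3, stood at 62.9 and 69.7 CPM. Next came the outer arm heavy chain Dnah9 at 45.6 and 28.4 CPM, the central pair protein Cfap46 at 41.6 and 24.4 CPM and its partner Cfap54 at 37.6 and 52.5 CPM. The level was at least 10 CPM in both libraries for 13 members, in 1 library for 5, and in neither for 30, and the median member stood at 4.53 CPM in the core and 5.25 CPM in the distal library. Every member had a UMI in the core library, and Cfap58, with 15 core UMIs, was the only member at 0 in the distal library.

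**Figure D1:**
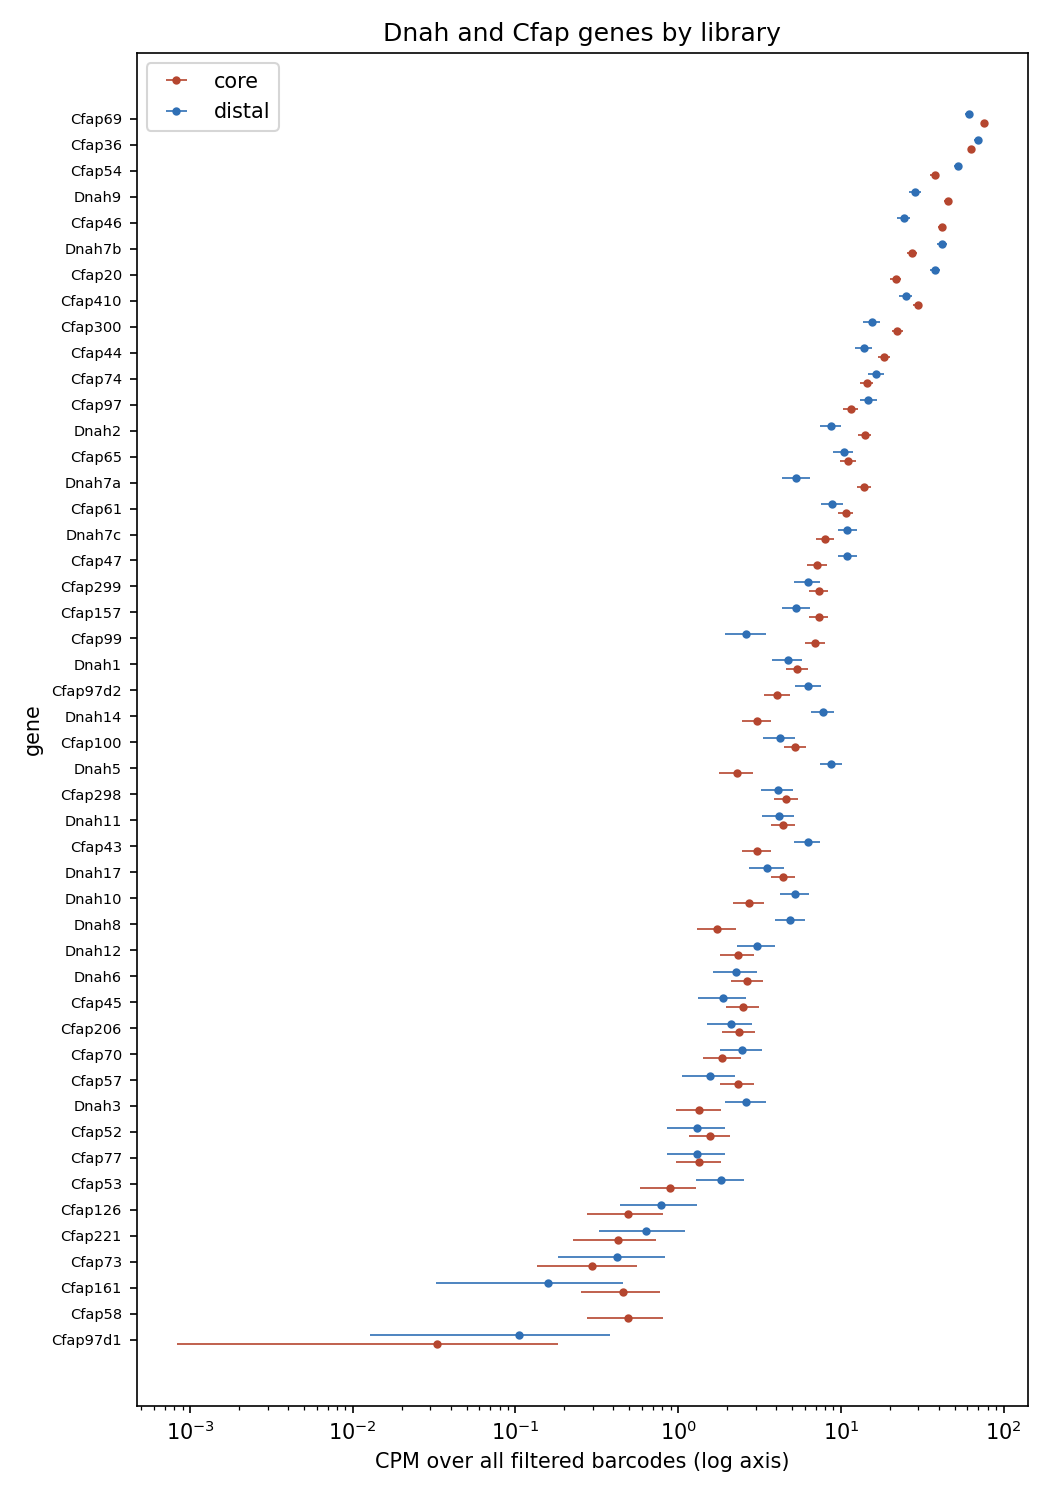
Level of each of the 48 Dnah and Cfap genes in the core (red) and distal (blue) library, in CPM over all filtered barcodes on a log axis, with exact 95% Poisson intervals for counting error. Genes are ordered by UMIs in both libraries; Cfap69 and Cfap36 lie at the top, and Cfap58 has no distal point because it had 0 UMIs there.

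With a floor of 10 CPM in either library, 18 members could be compared at 2-fold, and 1 was higher in the core and 0 in the distal library. Over all 10241 genes past the floor, 4.63% were at least 2-fold higher in the core and 14.3% in the distal library. The member was Dnah7a, an inner arm heavy chain, at 13.9 CPM (12.6 to 15.3) in the core and 5.30 CPM (4.32 to 6.44) in the distal library. Its near-identical neighbours on chromosome 1 ran the other way, Dnah7b at 27.5 CPM in the core and 42.0 CPM in the distal library and Dnah7c at 7.98 and 11.0 CPM. The labels do not say how reads that match several of these copies were counted, so the split among the Dnah7 copies is uncertain. By GENCODE M21 on GRCm38, 27 of the 48 members overlap a gene on the other strand and 8 overlap a gene on the same strand. Among the 8 are Cfap299, Cfap46 and Cfap43, the last of which overlaps Itprip, and whether counting used strand is not stated.

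Barcodes with 5 or more module UMIs numbered 413 in the core, 2.52% of its barcodes (2.29 to 2.78%), and 474 in the distal library, 6.37% (5.82 to 6.95%). These barcodes were deep, with medians of 5576 UMIs in the core and 6240 UMIs in the distal library, against 1278 and 1668 UMIs for barcodes below 5. Above the 90th percentile of depth, 18.2% of core and 38.7% of distal barcodes passed, against 0.320% and 0.591% below the 25th percentile. When every barcode was thinned to 1000 UMIs, leaving out 5181 shallower core and 1507 shallower distal ones, 16 core and 15 distal barcodes still had 5 or more. Just inside the threshold, 168 core barcodes with 5 module UMIs had a median depth of 4314.5 UMIs, and just outside it, 405 core barcodes with 4 had a median of 3221 UMIs. In the distal library 162 barcodes had 5, at a median depth of 4503.5 UMIs, and 271 had 4, at 3791 UMIs.

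Few of these barcodes held the module at a high share of their UMIs. The share was at least 0.5% in 23 core and 16 distal barcodes, called module-rich here, and below that in 390 and 458. In the second group the module stood at 903 CPM in the core and 819 CPM in the distal library, against 515 and 461 CPM in barcodes below 5 UMIs, and its median share of a barcode's UMIs was 0.103% and 0.0975% against 0.0366% and 0.0322%, differences that the threshold itself favours. Foxj1, Hydin and Spag17 stood at 5.54, 5.54 and 1.04 CPM in the 390 core barcodes and at 2.19, 3.89 and 0.974 CPM in the 458 distal barcodes. Of the cilia genes in 10 lists (dynein chains, docking, arm assembly, radial spokes, nexin-dynein complex, central pair, doublet proteins, multiciliation, intraflagellar transport and cytoplasmic dynein), 34 passed the floor in the core and 36 in the distal library. Among them 0 were at least 2-fold higher or lower in these deep barcodes than in barcodes below 5 UMIs, where 0.151% of all genes were higher and 0.313% lower in the core, and 0.188% and 1.21% in the distal library.

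Among genes outside the module and lists with at least 30 UMIs in barcodes of 5 or more, the highest share of UMIs there was found for Gm10714 (64.9% of 57 UMIs) and C230072F16Rik (60.7% of 56). The next 8 were Gm32004, Slc11a1, Pik3r6, A630001G21Rik, Prph, Gm30881, Chat and Rhoh, with 25.9% to 44.9%, beside the 14.2% of all UMIs that these barcodes held. Chat makes acetylcholine and Prph is a neurofilament protein, both textbook markers of motor neurons, and Slc11a1 and Rhoh are genes of blood cells.

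The 39 module-rich barcodes were shallow, with medians of 916 UMIs in the core and 900.5 UMIs in the distal library, and they held 1.86% of the 27547 module UMIs and 0.0938% of all UMIs. The cut at 0.5% was chosen after module values had been seen, and member levels in these barcodes are a description of that choice. Shares of the module ran from 0.513% to 1.42% of a barcode's UMIs in the core and from 0.583% to 2.47% in the distal library. The fullest core barcode had 21 module UMIs over 14 members in a total of 3889 UMIs. The fullest distal barcodes had 74 module UMIs over 27 members in 3088 UMIs, 54 over 24 in 2184 and 31 over 16 in 1413. By cluster, 11 of the 23 core barcodes and 7 of the 16 distal ones lay in the astrocyte-like cluster, and 10 core ones lay in a shallow unnamed cluster.

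**Figure D2:**
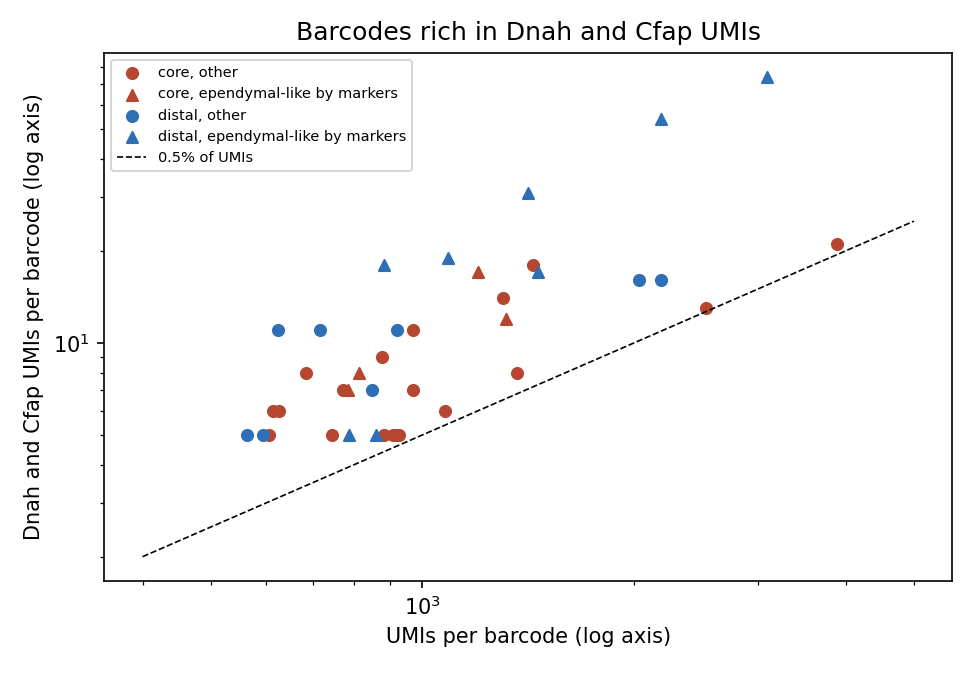
Module UMIs against all UMIs of the 39 module-rich barcodes, both on log axes, for core (red) and distal (blue), with triangles for nuclei that also met the ependymal marker rule. The dashed line is 0.5% of UMIs, the cut that defines the set, and the 3 distal triangles with 31, 54 and 74 module UMIs lie highest above it.

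In module-rich barcodes of both libraries together, Cfap299 had the most UMIs (53), then the inner arm heavy chains Dnah12 (42) and Dnah6 (36). The order differed by library. In the core set the outer arm chain Dnah9, with 16 UMIs, was above Dnah12. In the distal set Cfap46 (23), Cfap54 (20), Cfap44 (18) and Cfap65 (14) were above Dnah6. Dnah6 had 23 UMIs over 12 core barcodes and 13 over 8 distal barcodes, which is 878 and 642 CPM, against 1.91 and 1.58 CPM in the rest of each library. Dnah12 had 11 UMIs over 9 core barcodes and 31 over 12 distal barcodes, 420 and 1532 CPM against 1.97 and 1.42 CPM. Cfap299 had 19 UMIs over 12 core and 34 over 11 distal barcodes, 725 and 1680 CPM against 6.70 and 4.47 CPM. For these 3 genes, 29.0%, 32.6% and 15.5% of all their UMIs lay in the 39 barcodes.

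Other heavy chains and central pair members were present with a smaller part of their UMIs. Dnah9, an outer arm chain, stood at 610 and 544 CPM in module-rich core and distal barcodes and at 45.1 and 27.9 CPM in the rest, so that 1.40% of its UMIs lay in them. Dnah11, another outer arm chain, stood at 229 and 494 CPM against 4.24 and 3.63 CPM. Cfap46 stood at 382 and 1136 CPM against 41.3 and 23.2 CPM, and Cfap54 at 305 and 988 CPM against 37.4 and 51.5 CPM. Cfap43 and Cfap44, which tether an inner arm to the doublet, stood at 305 and 343 CPM in the core and at 642 and 889 CPM in the distal library, against rest levels of 2.79 and 18.1 CPM and of 5.57 and 12.9 CPM. Cfap65, a central pair protein, stood at 343 and 692 CPM against 10.8 and 9.67 CPM.

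Some of the most abundant members had few or no UMIs there. Cfap410, a basal body protein, had 0 UMIs in module-rich barcodes of both libraries, where 3 counts would be 114 CPM in the core and 148 CPM in the distal library, and it stood at 29.7 and 25.1 CPM in the rest. A level like that of the rest could not be shown at this depth. Cfap300, an arm assembly factor, had 1 and 0 UMIs, Cfap97 had 0 and 1, and Cfap20, a protein of the doublet junction, had 1 and 2. Cfap36 had 2 UMIs in the core, a ratio to the rest of 1.21 (0.147 to 4.39), and 7 in the distal library, a ratio of 4.98 (2.0 to 10.3). In all, 39 members had a UMI in module-rich barcodes and 9 had none, Cfap53, Cfap58, Cfap73, Cfap97d1, Cfap126, Cfap410, Dnah8, Dnah14 and Dnah17. Dnah8 and Dnah17 are outer arm chains best known from sperm.

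Genes that were not used to choose these barcodes were carried with them. Hydin, a giant central pair protein, had 6 UMIs in the core set, 229 CPM against 4.60 CPM in the rest, a ratio of 49.8 (18.0 to 111). In the distal set it had 15 UMIs, 741 CPM against 3.10 CPM, a ratio of 239 (126 to 427). Spag17, a central pair protein, had 4 UMIs in the core set and 5 in the distal set, 153 and 247 CPM against 2.0 and 2.16 CPM, with ratios of 76.2 (20.1 to 205) and 115 (35.4 to 290). Hydin or Spag17 was seen in 10 of 23 core and 12 of 16 distal barcodes. The size of these ratios moved with the cut: at 0.2% of UMIs Hydin had ratios of 7.86 in the core and 26.1 in the distal library, and Spag17 had 10.2 and 9.20.

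Foxj1 was not seen in any of them. It had 145 core and 45 distal UMIs in all, 4.76 and 2.37 CPM in the rest, and 0 in module-rich barcodes, where 3 counts would be 114 and 148 CPM. At this depth, levels up to those limits could not be seen. Of the Foxj1 UMIs, 68.3% in the core lay in neuron-like clusters outside the Ebf2-rich pair, where it stood at 5.58 CPM. In the distal library 62.2% lay in mixed or unnamed clusters, at 3.35 CPM. These sets also held much of all RNA counted, 17757344 UMIs in the core and 8364332 in the distal library. The whole libraries held 30469263 and 19049572 UMIs before the filter. Foxj1 had 0 UMIs in astrocyte-like nuclei of both libraries, where 3 counts would be 25.8 and 2.31 CPM.

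Of the 86 list genes in the matrices, 56 passed the floor in the core and 63 in the distal library when module-rich barcodes were set against the rest. At 2-fold, 36 were higher and 8 lower in the core, and 44 were higher and 11 lower in the distal library. With so few UMIs in the set, 1 UMI is past the floor, and 27.2% of all genes in the core and 27% in the distal library were called higher by the same rule, and 35.4% and 44.9% lower. Asking in addition for at least 3 UMIs in the set, 15 list genes were higher in the core and 22 in the distal library, beside 7.18% and 7.36% of all genes. A gene that is low in the rest could pass the floor only where it is high, so these counts are a description. Of the list genes at 10 CPM or more in the rest, 12 of 32 were higher and 8 lower in the core, beside 18.5% and 39.6% of all genes, and 14 of 33 were higher and 11 lower in the distal library, beside 20.1% and 49.2%.

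With at least 3 UMIs required in the set, the central pair list had the most genes called higher. They were 5 of its 8 genes in the core and 6 in the distal library, among them Hydin, Spag17 and Spag16. These 3 were below the floor in the rest and could pass only where they are high, so the lead is a description. With the floor required in the rest, 2 of 2 central pair genes were higher in the core and 1 of 1 in the distal library. The intraflagellar transport list then had the most, 3 of 13 and 8 of 13. Spag16, with 9 and 19 UMIs, stood at 343 and 939 CPM against 5.62 and 6.68 CPM. Ak7, an adenylate kinase of motile cilia, had 7 and 9 UMIs, 267 and 445 CPM against 11.2 and 5.26 CPM. Of the docking genes, Ccdc114 had 6 and 11 UMIs, 229 and 544 CPM against 2.04 and 6.20 CPM. Rsph1, Spef2 and Drc1 are in these lists and are also ependymal markers.

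The fixed ependymal markers, which the cut did not use, were at 916 CPM in the core set and 3261 CPM in the distal set, against 21.1 and 37.1 CPM in the rest, with ratios of 43.5 (27.7 to 65.3) and 88.0 (67.3 to 113). Of the 11 markers, 8 were seen in the core set and 9 in the distal set. Rarres2 and Mia were at 0 in both, and Ccdc153 was at 0 in the core set. Rsph1, Spef2 and Drc1 among the markers are also in the cilia lists. The markers thus overlap the cilia program, and their ratios are no separate evidence of cell type. The name ependymal-like used below rests on this marker list alone, and Rarres2 and Mia, at 0, gave it no support. Neuron markers stood at 21633 CPM in the core set and 6028 CPM in the distal set, below the 28988 and 13063 CPM of the rest, and 9 and 5 of 10 were seen. Astrocyte markers stood at 153 CPM against 82.6 CPM in the core, a ratio of 1.85 (0.503 to 4.74), and at 445 against 488 CPM in the distal library, and 3 of 7 were seen in each set, with Aqp4, Gfap, Slc7a10 and Agt at 0. Oligodendrocyte markers stood at 1412 and 5682 CPM against 822 and 8349 CPM. What part nuclei or RNA of these other types had in the module-rich barcodes was not tested. Among genes outside the module and lists with at least 10 UMIs and at least 5 barcodes in the set, a rule added after values were seen, the share of UMIs in the 39 barcodes was highest for Tmem212 (48.4% of 31 UMIs), C230072F16Rik (48.2% of 56) and Gm10714 (45.6% of 57).

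No cluster was named ependymal-like under any of the 6 clusterings, so ependymal-like nuclei were chosen one by one, as those with UMIs of at least 2 of the 11 fixed markers summing to at least 2000 CPM. This cut was settled after module counts had been seen beside marker counts, so the module level in these nuclei is no independent support for the label. There were 4 in the core and 8 in the distal library, and all 12 were also module-rich. Markers at 0 were Ccdc153, Rarres2, Mia, Armc3 and Drc1 in the core nuclei and Rarres2 and Mia in the distal nuclei. The 4 core nuclei had 17, 12, 8 and 7 module UMIs, and the 8 distal nuclei had 74, 54, 31, 19, 18, 17, 5 and 5, and the 2 groups overlapped. The module stood at 10695 CPM (7771 to 14358) in the core nuclei and 18963 CPM (16555 to 21622) in the distal nuclei. Hydin had 1 UMI in the core nuclei and 10 in the distal ones, Spag17 had 0 and 5, and Foxj1 had 0 and 0, where 3 counts would be 729 CPM in the core nuclei and 255 CPM in the distal nuclei.

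In ependymal-like nuclei against the rest of their library, 16 of 24 members past the floor were at least 2-fold higher in the core and 32 of 35 in the distal library, and 8 and 3 were lower. By the same rule 16.8% of all genes in the core and 25% in the distal library were higher, and 75.7% and 57.4% were lower, where a gene with 0 UMIs in the few nuclei counts as lower. In these few nuclei 1 UMI passes the floor, so a member low in the rest could pass only where it is high, and the counts are a description. Of the members at 10 CPM or more in the rest, 8 of 16 were higher and 8 lower in the core, beside 14.4% and 77.9% of all genes, and 11 of 14 were higher and 3 lower in the distal library, beside 20% and 61.3%. With at least 3 UMIs in the class, 6 members were higher in the core and 27 in the distal library, beside 1.42% and 5.49% of all genes. The 6 core members were Cfap45, Cfap61, Dnah6, Dnah7a, Dnah9 and Dnah12. Between the core and distal nuclei, 5 members were at least 2-fold higher in the core and 22 lower, where 27.2% of all genes were higher and 61% lower, and with 4 nuclei in the core little can be read from this.

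Outside these nuclei, module levels were close to each other in most core classes and further apart in the distal library. In the core they ran from 460 CPM in fibroblast-like nuclei to 611 CPM (477 to 771) in astrocyte-like nuclei, leaving out the Ebf2-rich clusters. In the distal library they ran from 318 CPM (300.3 to 336.6) in oligodendrocyte-like nuclei to 658 CPM (615 to 704) in astrocyte-like nuclei. Endothelial-like nuclei, which carry no motile cilia, stood at 524 CPM (397 to 679) in the core and 480 CPM (378 to 601) in the distal library, and hepatocyte-like nuclei stood at 408 CPM (304 to 536) in the distal library. The share of nuclei with a module UMI was 46.8% and 46.0% in endothelial-like nuclei, at median depths of 1208.5 and 1098 UMIs, and 63.6% and 70.6% in neuron-like nuclei outside the Ebf2-rich pair, at 1946 and 2382 UMIs.

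**Figure D3:**
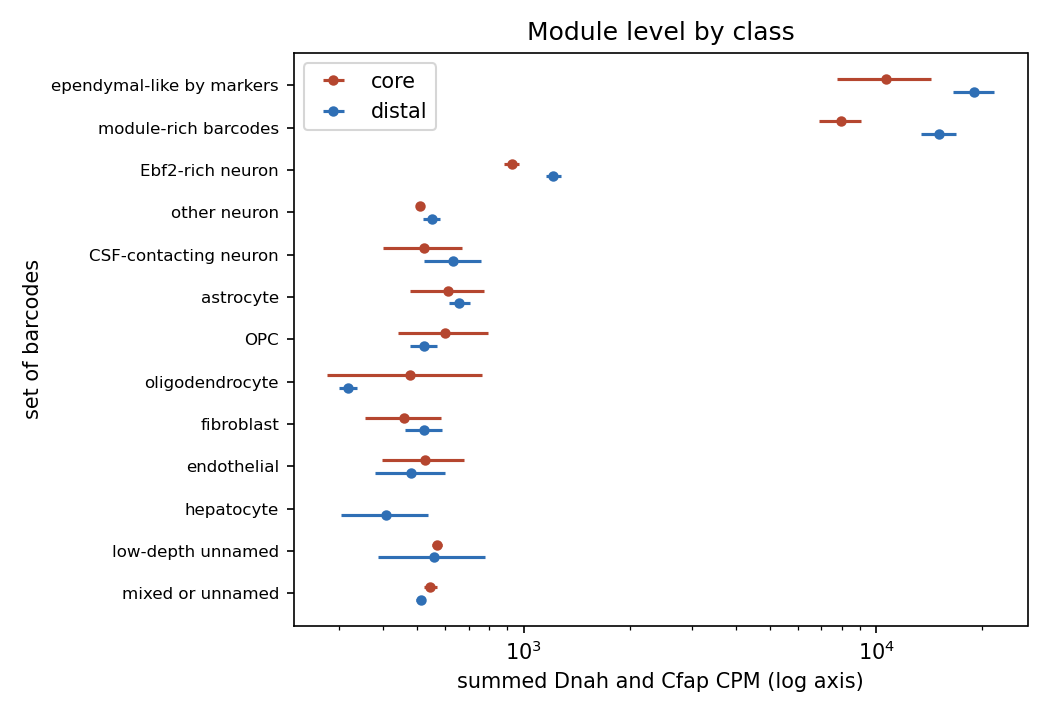
Summed Dnah and Cfap level in each set of barcodes, in CPM on a log axis, for core (red) and distal (blue), with exact 95% Poisson intervals for counting error. Most classes lie between 318 and 658 CPM, the Ebf2-rich neuron-like clusters lie above them at 925 and 1213 CPM, and the sets chosen by module UMIs or ependymal markers lie far to the right.

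Nearly all members had most of their UMIs outside ependymal-like nuclei. Of the 43 members with at least 30 UMIs, all 43 had over 50% of their UMIs in barcodes that were neither ependymal-like nor at 5 or more module UMIs, from 54.3% for Dnah12 to 84.0% for Cfap298. This is not particular to the members, since those barcodes held 85.8% of all UMIs and the same was true of 99.98% of the 17629 genes with at least 30 UMIs. The median was 76.6% for the members and 85.7% for all these genes, and the choice of barcodes by member UMIs itself lowers the first. The largest of these by UMIs were Cfap69, Cfap36, Cfap54, Dnah9, Cfap46, Dnah7b, Cfap20, Cfap410, Cfap300, Cfap44, Cfap74 and Cfap97. Cfap36 was found in every distal class, and it ran from 44.2 CPM (17.8 to 91.1) in endothelial-like and 51.5 CPM (44.5 to 59.2) in oligodendrocyte-like nuclei to 113 CPM (95.9 to 132) in the Ebf2-rich clusters and 117 CPM (73.1 to 177) in CSF-contacting neuron-like nuclei.

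Neuron-like nuclei were set against all other named classes after ependymal-like and 5-UMI barcodes had been left out; the Ebf2-rich pair counted among the neuron-like nuclei and the CSF-contacting neuron-like cluster among the other classes. In the core, where the other classes held few nuclei, the module stood at 508 CPM against 469 CPM, a ratio of 1.08 (0.955 to 1.23). In the distal library it stood at 675 CPM against 393 CPM, a ratio of 1.72 (1.62 to 1.82). Before barcodes were left out, 1804 oligodendrocyte-like nuclei were the largest of the other distal classes, at 318 CPM. Astrocyte-like and CSF-contacting neuron-like nuclei, at 658 and 631 CPM, stood above the 549 CPM of neuron-like nuclei outside the Ebf2-rich pair. Progenitor-like (OPC), fibroblast-like, endothelial-like and hepatocyte-like nuclei stood below it, at 521, 521, 480 and 408 CPM. Without the Ebf2-rich pair and the CSF-contacting neuron-like cluster the ratios were 0.978 (0.856 to 1.12) in the core, on the other side of 1, and 1.28 (1.19 to 1.39) in the distal library. At 2-fold, 3 of 16 members past the floor were higher in core neuron-like nuclei, beside 3.51% of all genes, and 10 of 19 in distal ones, beside 15.2%. These counts include the Ebf2-rich pair, which was noticed through its high module level, and no count was made without it. In each library 1 member was lower, Cfap61 in the core and Dnah5 in the distal library, beside 15.3% and 17.5% of all genes. Cfap61 went the other way between the libraries, with a ratio of 0.496 (0.263 to 1.05) in the core and 2.19 (1.30 to 3.67) in the distal library, where it was among the 10. Cfap300 and Cfap65 were at least 2-fold higher in both libraries, but both core intervals cover 1. Cfap65 had a ratio of 5.60 (0.993 to 222) in the core, from 1 UMI in the other classes. In the distal library its ratio was 5.43 (3.25 to 9.38). The remaining core call, Dnah7a, had a ratio of 6.73 (1.20 to 267), also from 1 UMI in the other classes. Cfap300 stood at 21.5 CPM against 9.27 CPM in the core, a ratio of 2.32 (0.986 to 7.19), and at 21.5 CPM against 6.29 CPM in the distal library, a ratio of 3.41 (2.26 to 5.19). Dnah5, an outer arm chain, stood in the distal library at 3.46 CPM against 11.7 CPM.

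Of the 10 neuron-like clusters, 2 had Ebf2, a transcription factor gene, at no less than 2 times its level over all neuron-like nuclei. They held 1071 core and 649 distal nuclei, and the group was noticed through its high module level, so that its module level is a description. Clusters had been formed without the members and lists. Neuron markers stood at 25118 and 25603 CPM in the 2 clusters. Their class scores, mean log2 marker levels against all clusters, were small. The larger cluster scored 0.281 for fibroblast and 0.260 for neuron markers, with Bnc2, a fibroblast marker, among its leading genes. Col1a1, Dcn and Lum stood at 1.59, 1.06 and 0 CPM there. The smaller scored 0.173 for neuron and 0.146 for choroid plexus markers. A cluster of 106 core and 58 distal nuclei that no class rule named, singled out after its values were seen, also had high Ebf2 (1328 CPM) and neuron markers at 23681 CPM, and its module level was 720 CPM in the core and 844 CPM in the distal library. The module stood at 925 CPM (882 to 970) against 509 CPM in the other neuron-like clusters of the core, a ratio of 1.82 (1.73 to 1.91), and at 1213 CPM (1155 to 1273) against 549 CPM in the distal library, a ratio of 2.21 (2.05 to 2.38). The median depth was lower in these nuclei, 1502 against 1946 UMIs in the core and 1845 against 2382 UMIs in the distal library.

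A subset of members made this difference. At 2-fold, 9 of 19 members past the floor were higher in the core and 8 of 19 in the distal library, and 0 were lower, beside 3.32% and 4.87% of all genes called higher and 2.88% and 6.9% lower. Cfap54 stood at 130 CPM against 27.9 CPM in the core, a ratio of 4.65 (3.97 to 5.43), and at 223 CPM against 64.9 CPM in the distal library, a ratio of 3.44 (2.81 to 4.23). Cfap69 stood at 189 CPM against 63.4 CPM, a ratio of 2.99 (2.65 to 3.37), and at 259 CPM against 59.0 CPM, a ratio of 4.40 (3.58 to 5.42). Not all heavy chains were called higher. Dnah9 had ratios of 2.04 (1.72 to 2.42) and 4.30 (3.05 to 6.15), and Dnah7b had 2.92 (2.36 to 3.59) and 3.42 (2.49 to 4.75). Dnah6 and Dnah11 were below the floor, with 1 to 5 UMIs in the Ebf2-rich clusters. Dnah6 had ratios of 0.592 (0.0687 to 2.32) in the core and 0.539 (0.0103 to 6.71) in the distal library. Dnah11 had 0.640 (0.202 to 1.56) and 0.808 (0.131 to 3.78). All of these intervals but that of Dnah11 in the core include a 2-fold rise. Cfap65 had 3.08 (2.24 to 4.19) and 3.58 (2.15 to 6.15). Some members reached the floor of 10 CPM only in the Ebf2-rich clusters. Of the members at 10 CPM or more in the other neuron-like clusters, 5 of 15 were at least 2-fold higher in the core and 6 of 16 in the distal library, beside 1.87% and 2.52% of all genes, and 0 were lower, beside 3.03% and 7.4%.

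Other abundant members were not 2-fold higher in these clusters. Cfap46 had ratios of 0.843 (0.646 to 1.08) in the core and 0.808 (0.539 to 1.20) in the distal library, although it is known as a partner of Cfap54 in the central pair. Cfap36 had 1.13 (0.931 to 1.35) and 1.35 (1.08 to 1.68), and Cfap20 had 0.955 (0.665 to 1.33) and 1.31 (0.893 to 1.92). Dnah12, one of the leading members in module-rich barcodes, had 2 and 3 UMIs in the Ebf2-rich clusters, 1.07 and 2.22 CPM, and Hydin stood at 3.73 and 3.69 CPM there.

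**Figure D4:**
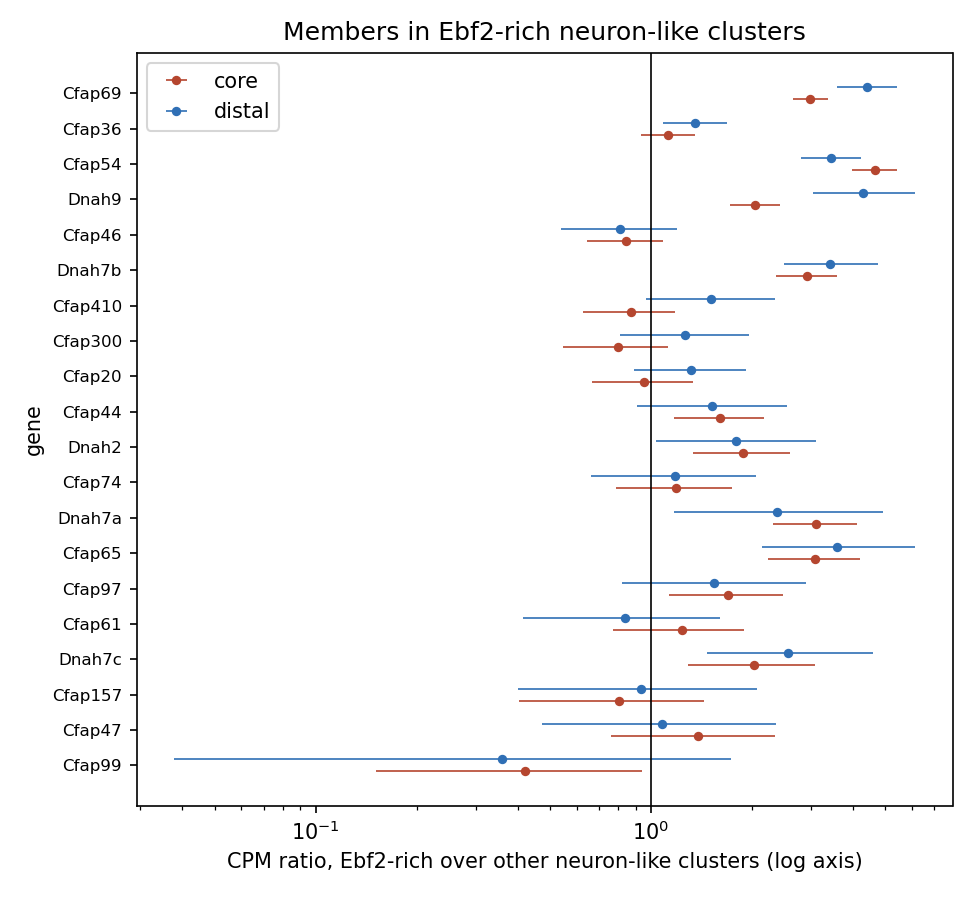
Ratio of CPM in Ebf2-rich over other neuron-like clusters for the 20 members with the most UMIs in neuron-like nuclei, on a log axis, for core (red) and distal (blue), with exact 95% conditional intervals for counting error. Cfap54, Cfap69, Dnah9, Dnah7b and Cfap65 lie to the right of 1 in both libraries, while Cfap46 and Cfap20 have intervals that cover 1.

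Some genes of the cilia lists were also higher in the Ebf2-rich clusters. Of the list genes past the floor in either set, 6 of 41 were at least 2-fold higher in the core and 8 of 44 in the distal library, beside the 3.32% and 4.87% of all genes, and 1 and 0 were lower. Of those at 10 CPM or more in the other neuron-like clusters, 0 of 32 and 1 of 34 were higher, so that nearly all of the calls were of genes that reached the floor only in the Ebf2-rich clusters. Gmnc, a coiled-coil regulator at the head of the multiciliation program, stood at 47.5 CPM against 5.07 CPM in the core, a ratio of 9.37 (6.91 to 12.7), and at 65.0 CPM against 3.66 CPM in the distal library, a ratio of 17.8 (8.64 to 42.5). It had 0 UMIs in module-rich barcodes, where 3 counts would be 114 and 148 CPM, so levels like these could not be seen there. Spag16 had ratios of 3.33 (2.04 to 5.27) and 2.60 (1.40 to 4.98), and Lrrc6, an arm assembly factor, had 2.16 (1.33 to 3.40) and 5.33 (2.57 to 12.1). Foxj1 stood at 3.20 and 0.739 CPM there, from 6 and 1 UMIs. The intraflagellar transport list had 0 genes at least 2-fold higher or lower in either library.

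Between the libraries, the module was lower in the core in each of these sets by CPM, and with TMM scaling this turned in the other neuron-like clusters, where the ratio became 1.07. The core to distal ratio was 0.527 (0.439 to 0.630) in module-rich barcodes and 0.564 (0.399 to 0.782) in ependymal-like nuclei. Both sets were chosen with module counts in view, and 3 distal barcodes held 159 of the 305 module UMIs; without them the ratios were 0.737 (0.593 to 0.917) and 0.848 (0.564 to 1.26). The ratio was 0.763 (0.712 to 0.816) in Ebf2-rich clusters and 0.928 (0.874 to 0.987) in the other neuron-like clusters. Among module-rich barcodes, Dnah12 made up 5.29% of core and 10.2% of distal module UMIs, and Dnah6 made up 11.1% and 4.26%. None of these differences has a replicate check, and library and region cannot be told apart.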

How the data were processed

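The authors deposited raw UMI counts per gene and barcode for 2 single-nucleus libraries, with no normalisation, written by Cell Ranger 7.1.0 per the file headers. Per the submitters' processing notes, Seurat is listed as a tool, and GRCh38 and mm10 are named with no role given. The other deposited files are tables of barcodes and features. Scrublet marked 0 doublets, its thresholds being above the highest scores; it did not work here, and no barcode was removed as a doublet. Both libraries were clustered together with scanpy 1.11.5 and leidenalg 0.10.2: counts scaled to 10000 and then per gene, the 2000 most variable genes without the members, the cilia lists, Neurod1, sex-linked and mitochondrial genes, 40 components, 15 neighbours and resolution 1.0, giving 22 clusters. Clusters took a class by fixed markers. No cluster was ependymal-like, so the alternative of classing nuclei one by one replaced the cluster class. Cluster naming limits, the marker and 0.5% cuts and the Ebf2-rich group were settled after module values had been seen, and several cuts were tried (their values are in the closing section). The members and lists were chosen with earlier results of these data known.

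Named genes were members with at least 10 UMIs in ependymal-like nuclei (at most 12 of each family), the 12 largest members used outside them, Foxj1, Hydin, Spag17, leading list genes and the 10 genes most confined to barcodes of 5 or more module UMIs. TMM factors came from edgeR 4.0.16. The calls and intervals were tested on simulated data. Those used larger sets than the ependymal-like nuclei (4114 UMIs in the core and 11760 in the distal library) and genes above the level of most members. That test therefore does not cover the calls in ependymal-like nuclei. Limits given beside a count of 0 are 3 counts.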

Additional observations from a re-analysis of the deposited data

How the results depend on the processing

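Of 80 alternative values, 37 stayed close to the value in the text, 43 moved and 0 called values changed direction, while the core ratio of neuron-like to other classes, whose interval covers 1, fell to 0.978 without the Ebf2-rich pair and the CSF-contacting neuron-like cluster; the cause was not tested unless the alternative's construction gives it. Intervals and counts rest on 1 library per region, and in the sets of 23, 16, 4 and 8 nuclei 1 UMI already passes the floor of 10 CPM. Without the 5 members whose symbols do not end in the digits the module level was 505 CPM in the core and 489 CPM in the distal library, and with TMM scaling it was 598 and 517 CPM. Barcodes with 3 or more module UMIs numbered 1737 and 1341, those with 10 or more 44 and 79, and those with 5 or more after thinning 16 and 15. Without the 43 members with at least 30 UMIs, all used outside ependymal-like nuclei, 5 members of few UMIs remain, and 0 barcodes in both libraries reached 5 UMIs, which those few UMIs fix.

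The remaining cuts were chosen or tried after seeing the data. Module-rich barcodes numbered 97 in the core and 101 in the distal library at 0.2% of UMIs, 45 and 44 at 0.3%, and 13 and 12 at 0.8%. The Hydin ratio was 24.0 and 64.6 at 0.3% and 53.3 and 282 at 0.8%, and that of Spag17 was 31.3 and 31.0 and then 80.6 and 126. With ependymal markers at 1000 CPM the module level was 6684 CPM in the core nuclei and 7582 CPM in the distal ones. With at least 3 markers it was 18963 CPM in the distal nuclei and with at least 4 it was 21608 CPM, while no core nucleus met either cut. Requiring 3 UMIs, 6 members were higher in core ependymal-like nuclei, and with 10 CPM required in the rest 8 in the core and 11 in the distal library. At 1.5-fold, 5 members were higher in core neuron-like nuclei, and with no CPM floor 17 in the core and 22 in the distal library. The share of all genes under these 2 rules was not counted. Without a floor, a member with 0 UMIs in the other classes counts as higher, such as Cfap77 and Cfap206 in the core. These counts are therefore no result about the members. The Ebf2-rich ratio was 1.59 in the core and 2.0 in the distal library at resolution 0.5, 1.72 in the core at resolution 2.0, 1.58 and 1.97 with members among the variable genes, 1.84 and 2.18 on values not scaled per gene, 1.59 and 2.01 with at least 500 genes, 1.78 and 2.15 with the unnamed cluster of high Ebf2, and 1.71 and 1.98 without barcodes of 5 or more module UMIs. Settings that take the ependymal class from clusters gave no value, since no cluster was named ependymal-like.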
